A study of Mus musculus with 2 samples.

Results

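The genes described here are 8 germline genes of the piRNA pathway, Piwil2, Mov10l1, Ddx4, Tdrd9, Tdrd1, Asz1, Mael and Tex19.1, taken by name, with earlier results of these data known, out of 22367 protein-coding genes in the annotation. For each gene, the CpGs within 1 kb of its annotated start, called its promoter here, and those in the rest of its annotated span, called its body, were compared between 2 libraries of mouse embryonic fibroblasts (MEFs). One library came from Dnmt1+/+ MEFs and the other from Dnmt1-/- MEFs, which are homozygous for the hypomorphic n allele of the maintenance DNA methyltransferase gene Dnmt1. Both lines also lack p53 (trp53 null), and how many embryos or clones stand behind each line was not given in the sources used here. Methylation was measured by reduced representation bisulfite sequencing (RRBS), in which DNA cut at CpG-containing restriction sites is treated with bisulfite, so that unmethylated cytosines are read as thymine. With 1 library per genotype there were no replicates, so each test below compares these 2 libraries and not the genotypes, and the 95% Wilson intervals cover counting error only. Neighbouring CpGs were read on the same fragments (8 of the 12 Asz1 promoter CpGs each had 41 calls in Dnmt1-/-, for example), so pooled calls are not independent and their intervals are too narrow.

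piRNAs are small RNAs of the germline that guide Piwi-clade Argonaute proteins to transposon transcripts and, in fetal male germ cells, to transposon DNA, where new DNA methylation is laid down. Their production and function need RNA helicases, tudor-domain proteins that bind methylated arginines of the Piwi proteins, and scaffold proteins of the nuage, a germ cell structure next to mitochondria. In somatic cells many genes of this pathway are silent and carry DNA methylation at CpG-rich promoters, and they are known as genes that respond to loss of that methylation. RNA was not measured in these 2 libraries, so the values below are methylation levels and say nothing of expression.

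The table held 1790826 CpGs, 8.39% of those in the genome, each with at least 10 calls in both libraries, a median of 29 calls per CpG in Dnmt1+/+ and 30 in Dnmt1-/-. CpGs inside the sequences CCGG or TCGA were kept apart because they read 52.7% in Dnmt1+/+ and 51.9% in Dnmt1-/- even at promoters whose remaining CpGs averaged under 5% in both libraries, so their values are not taken as methylation levels here and the cause was not tested. Both are sites of enzymes commonly used for RRBS, but the enzymes used here were not given in the sources used. The levels below are means over the remaining CpGs, called other CpGs, unless all CpGs are named. Over all 996064 other CpGs the mean was 45.0% in Dnmt1+/+ and 15.1% in Dnmt1-/-.

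The windows that carry the differences between the genes are printed first, 5′ to 3′ on the strand of the gene, from the mm9 genome. Capitals mark the CG of each measured other CpG. The Tex19.1 window (chr11:121007567-121007757, plus strand, first intron) is shown because methylation there was almost lost in Dnmt1-/-. The Mov10l1 window (chr15:88813089-88813221, plus strand, upstream of the start) is shown because it holds matches to transcription factor motifs at measured CpGs. The Asz1 window (chr6:18058941-18059181, minus strand) and the Ddx4 window (chr13:113442506-113442658, minus strand) both span the start and are shown because high and low CpGs stood side by side in Dnmt1-/-.
Tex19.1: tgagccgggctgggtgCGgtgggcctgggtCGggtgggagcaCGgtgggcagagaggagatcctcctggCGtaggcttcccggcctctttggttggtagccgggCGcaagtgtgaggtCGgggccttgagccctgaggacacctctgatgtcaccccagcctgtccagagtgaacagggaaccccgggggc
Mov10l1: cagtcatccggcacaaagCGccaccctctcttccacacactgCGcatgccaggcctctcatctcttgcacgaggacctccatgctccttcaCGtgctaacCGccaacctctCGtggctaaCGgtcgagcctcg
Asz1: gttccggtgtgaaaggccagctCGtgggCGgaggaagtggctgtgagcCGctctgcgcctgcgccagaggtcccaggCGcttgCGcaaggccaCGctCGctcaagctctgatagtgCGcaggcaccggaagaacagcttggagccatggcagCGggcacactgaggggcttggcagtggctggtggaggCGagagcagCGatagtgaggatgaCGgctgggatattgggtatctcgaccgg
Ddx4: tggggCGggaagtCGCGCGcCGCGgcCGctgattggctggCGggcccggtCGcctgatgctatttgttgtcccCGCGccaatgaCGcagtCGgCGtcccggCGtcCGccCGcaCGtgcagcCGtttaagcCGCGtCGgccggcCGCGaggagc
In the next lines the same Asz1 and Ddx4 windows have capitals only at the CpGs that stayed at 50% or more in Dnmt1-/-, 5 in Asz1 and 8 in Ddx4.
Asz1: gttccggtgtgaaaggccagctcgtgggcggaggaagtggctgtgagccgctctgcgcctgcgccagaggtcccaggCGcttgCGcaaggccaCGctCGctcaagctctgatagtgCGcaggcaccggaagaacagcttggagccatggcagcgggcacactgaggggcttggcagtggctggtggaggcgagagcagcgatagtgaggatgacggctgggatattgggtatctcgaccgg
Ddx4: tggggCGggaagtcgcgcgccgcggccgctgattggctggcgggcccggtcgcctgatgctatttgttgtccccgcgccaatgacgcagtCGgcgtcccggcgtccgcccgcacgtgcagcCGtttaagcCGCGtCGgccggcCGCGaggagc
No measured other CpG of the Tex19.1 or Mov10l1 window stayed at that level.

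Across the 8 promoters, 92 other CpGs were measured, and methylation was high in Dnmt1+/+ and lower in Dnmt1-/- at each gene. Of these CpGs, 81 (88.0%) were called lower in Dnmt1-/- by Fisher's exact test (two-sided, with p-values adjusted by the Benjamini-Hochberg method over the whole table), 0 were called higher and 11 were not called. Among other CpGs within 1 kb of all protein-coding starts, 7.11% were called lower and 0.621% higher. Most of those CpGs had little methylation to lose, since the median promoter of the annotation read 2.66% in Dnmt1+/+ and 1.21% in Dnmt1-/-. A minimum of 5 other CpGs was set for counting promoters, which 7 of the 8 genes reached (Piwil2 had 4), and 7 of 7 were at 50% or more in Dnmt1+/+ and lower by 25 points or more in Dnmt1-/-. Over the 12837 promoters with that many CpGs, 6.04% were at 50% or more in Dnmt1+/+ and 7.1% were lower by 25 points or more. Of the 775 promoters at 50% or more in Dnmt1+/+, 91.7% were lower by 25 points or more, so a fall of that size was the usual outcome for a promoter that began methylated. Their level in Dnmt1+/+ was unusual among promoters, and there the 7 genes ranked between the 96.6 and the 99.4 percentile of all promoters.

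**Figure D1:**
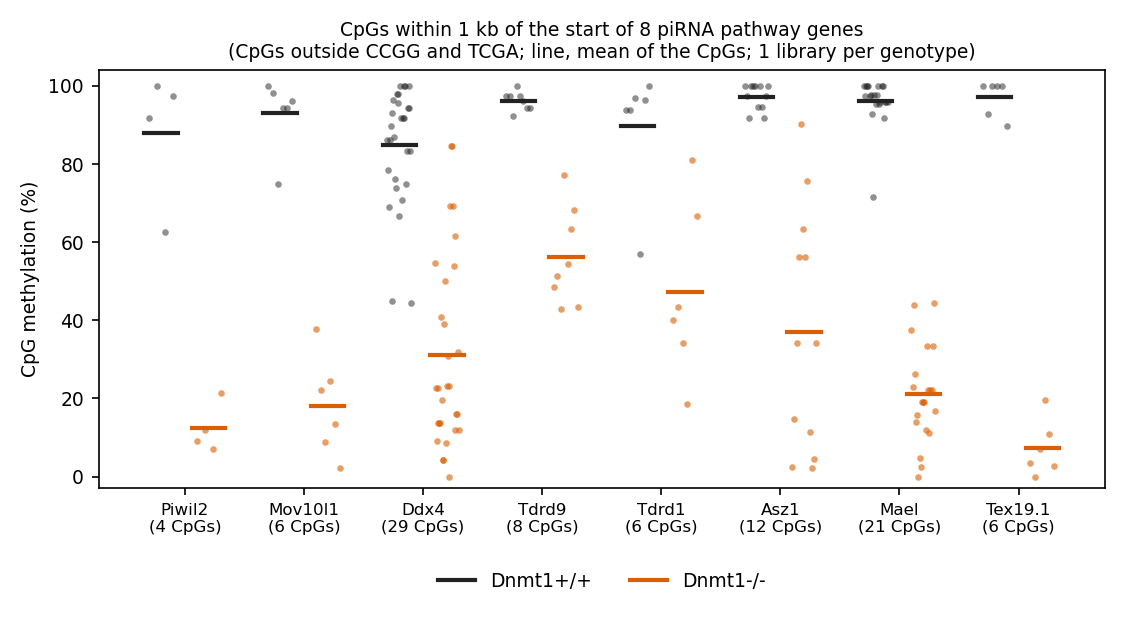
Percent methylation of each measured other CpG (points) within 1 kb of the start of the 8 genes, in the Dnmt1+/+ and the Dnmt1-/- library, with the mean of each gene (line). Tex19.1 sits lowest in Dnmt1-/- at a mean of 7.34% and Tdrd9 highest at 56.2%, and points of Ddx4, Tdrd1 and Asz1 spread from under 20% to over 80%.

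Piwil2 encodes MILI, a Piwi-clade Argonaute that binds piRNAs (chr14:70772287-70828901, minus strand). Its 4 other promoter CpGs, all upstream of the start between -453 and -201 bp, had a mean of 87.9% in Dnmt1+/+ and 12.4% in Dnmt1-/-. Pooled over 148 calls, the Dnmt1-/- level was 12.8% (8.37 to 19.18%), and the 131 calls in Dnmt1+/+ gave 87.0% (80.2 to 91.7%). All 4 CpGs were called lower, from the one at -312 bp (100% to 11.9%, adjusted p = 1.23e-16, Fisher's exact test) to the one at -306 bp (62.5% to 7.14%, adjusted p = 7.19e-07). The -306 bp CpG was thus already lower than its close neighbour in Dnmt1+/+, and none of the 4 stayed above 21.4% in Dnmt1-/-.

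Mov10l1, an RNA helicase that binds Piwi proteins and passes piRNA precursors into processing (chr15:88813339-88885582, plus strand), had 6 other CpGs upstream of its start. Their mean was 92.9% in Dnmt1+/+ and 18.1% in Dnmt1-/-, where the 270 pooled calls gave 18.1% (14.0 to 23.2%). All 6 were called lower. The CpG at -130 bp lost nearly everything (96.2% to 2.22%, adjusted p = 4.05e-22, Fisher's exact test), whereas the CpG at -232 bp kept 37.8% from a start of 100% (adjusted p = 1.22e-11).

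Ddx4, also called Vasa or MVH, is a DEAD-box RNA helicase widely used as a germ cell marker (chr13:113388541-113442518, minus strand). It had the most measured CpGs of the 8 genes, 29 between -135 and 116 bp, which averaged 84.8% in Dnmt1+/+ but 31.2% in Dnmt1-/-. The 1150 pooled calls in Dnmt1-/- gave 27.4% (24.9 to 30.0%). It also had most of the CpGs without a call in the whole set, 9 of 11, with 20 called lower. The CpG at -31 bp went from 91.7% to 0 of 26 calls (adjusted p = 5.64e-11, Fisher's exact test; a count of 0 allows up to 11.5%), while the CpG at -8 bp read 91.7% and 84.6% (adjusted p = 0.866). The levels of this gene in Dnmt1+/+ were also the most uneven, from 44.4% to 100%.

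Tdrd9 joins tudor and helicase domains and acts in transposon silencing in the male germline (chr12:113209770-113307065, plus strand). It kept the most methylation of the 8 promoters. Its 8 other CpGs, all in the first exon between 130 and 240 bp downstream of the start, had means of 96.2% and 56.2%, and the 415 pooled calls in Dnmt1-/- gave 54.7% (49.9 to 59.4%). All 8 were nevertheless called lower, from 94.3% to 43.3% at 240 bp (adjusted p = 3.8e-16, Fisher's exact test) and from 100% to 77.1% at 183 bp (adjusted p = 0.00471). None fell under 42.9% in Dnmt1-/-, so the methylation kept was spread over the whole window and did not come from a few CpGs.

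Tdrd1, a tudor-domain protein that binds Piwi proteins in the nuage (chr19:56900699-56944502, plus strand), had 6 other CpGs in its first intron, 284 to 455 bp downstream of the start. Their means were 89.6% and 47.3%, yet the 459 pooled calls in Dnmt1-/- gave only 35.3% (31.1 to 39.8%), because the deeper CpGs read lower. The range in Dnmt1-/- ran from 18.6% to 81.0%. The CpG at 295 bp fell from 96.9% to 34.1% (adjusted p = 1.96e-28, Fisher's exact test), and the one at 452 bp read 96.3% and 81.0% (adjusted p = 0.271), the only one of the 6 without a call.

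Asz1, also called GASZ, is an ankyrin-repeat scaffold protein of the nuage and mitochondria (chr6:18000964-18059061, minus strand). Its 12 other CpGs between -98 and 93 bp had the highest mean in Dnmt1+/+ of the 8 genes, 97.3%, and a mean of 37.1% in Dnmt1-/-. The 504 pooled calls in Dnmt1-/- gave 36.5% (32.4 to 40.8%). Of the 12, 11 were called lower, with the largest fall at -98 bp (100% to 2.44%, adjusted p = 9.14e-20, Fisher's exact test). The CpG at -37 bp, inside the same printed window, read 100% in Dnmt1+/+ and 90.2% in Dnmt1-/- (adjusted p = 0.216, Fisher's exact test). By location, the 8 upstream CpGs had a Dnmt1-/- mean of 49.1% and the 4 in the first exon 13.1%.

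Mael encodes Maelstrom, an HMG-box protein of the nuage needed for transposon silencing (chr1:168131516-168168875, minus strand). Its 21 other CpGs between -20 and 306 bp, 15 of them in the first exon, had means of 96.1% and 21.1%, and the 1186 pooled calls in Dnmt1-/- gave 22.5% (20.2 to 24.98%). All 21 were called lower. At 68 bp methylation went from 97.6% to 0 of 42 calls (which allows up to 7.14%, adjusted p = 3.54e-21, Fisher's exact test), and at 208 bp from 95.8% to 44.4% (adjusted p = 0.000917), the highest level among the 21.

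Tex19.1 is expressed in germ cells and placenta and is needed to hold down retrotransposons in the germline (chr11:121007457-121009633, plus strand). Its 6 other CpGs lay in the first intron, 126 to 228 bp downstream of the start, and averaged 97.1% in Dnmt1+/+ but 7.34% in Dnmt1-/-, the lowest of the 8 genes. The 441 pooled calls in Dnmt1-/- gave 7.03% (4.996 to 9.80%). All 6 were called lower, from 100% to 3.57% at 126 bp (adjusted p = 5.18e-31, Fisher's exact test) and from 100% to 19.6% at 179 bp (adjusted p = 7.83e-22). Every measured other CpG of the window printed above was thus under 20% in Dnmt1-/-.

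The share of the Dnmt1+/+ level that was kept in Dnmt1-/- differed widely between the genes. It was 7.56% at Tex19.1, 14.1% at Piwil2, 19.5% at Mov10l1, 21.9% at Mael, 36.8% at Ddx4, 38.1% at Asz1, 52.8% at Tdrd1 and 58.4% at Tdrd9. The median over the 7 genes with at least 5 CpGs was 36.8%, beside 32.2% over all promoters at 50% or more in Dnmt1+/+, whose middle range ran from 14.7 to 49.95%. From pooled calls the order of the medians turned, with 31.7% over the 7 genes and 33.4% over all such promoters. Tex19.1 therefore lay below that range, Tdrd9 above it, and Mov10l1, Mael, Ddx4 and Asz1 within it. Tdrd1 lay just above it by the mean over CpGs but inside it by pooled calls, which gave 41.8% for Tdrd1 and a middle range of 14.5 to 51.3% over promoters. Ordered by pooled Dnmt1-/- level, the intervals of neighbours overlapped between Tex19.1 and Piwil2, Piwil2 and Mov10l1, Mov10l1 and Mael, Mael and Ddx4 (by less than 1 point) and Tdrd1 and Asz1. Since the intervals are too narrow, no separation between the remaining neighbours is read from them. The CpGs measured lay at different distances from the start in each gene, and no promoter was covered in full, so these are levels of the measured stretches and not of whole promoters.

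**Figure D2:**
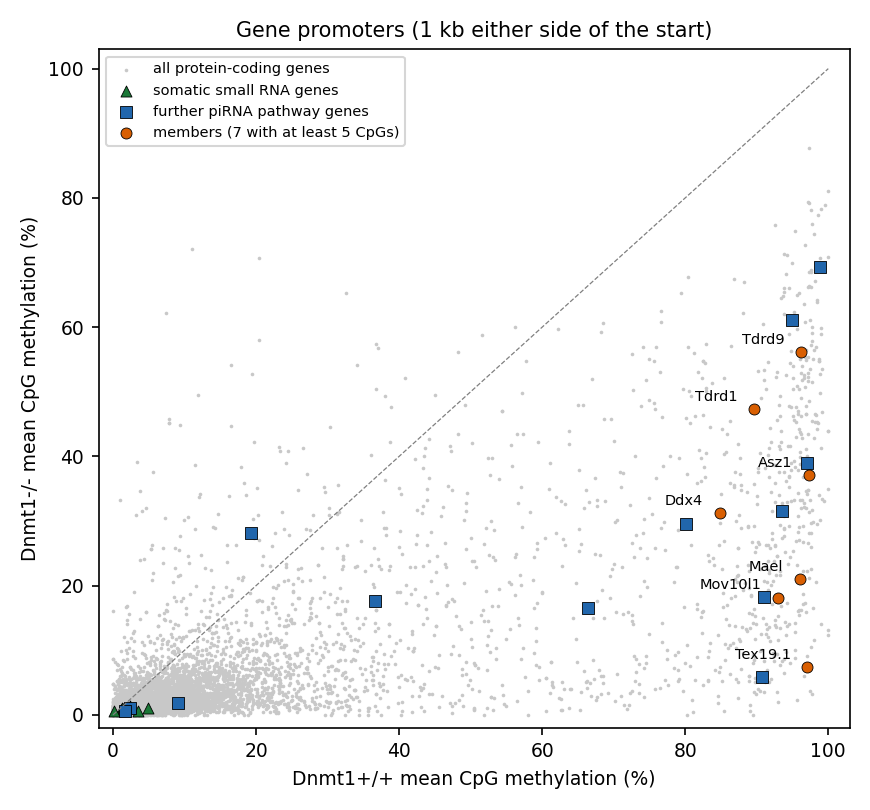
Mean percent methylation over the other CpGs of each promoter in Dnmt1+/+ (horizontal axis) and Dnmt1-/- (vertical axis) for protein-coding genes with at least 5 such CpGs, with the 7 of the 8 genes that reach that number marked. The named genes lie at the far right, from 84.8 to 97.3% in Dnmt1+/+, and spread from 7.34 to 56.2% in Dnmt1-/-.

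At the level of single CpGs the 8 genes looked like other methylated promoters. Of their 79 promoter CpGs at 80% or more in Dnmt1+/+, 33 (41.8%) were at 20% or less in Dnmt1-/-, 19 (24.1%) stayed at 50% or more and 4 (5.06%) stayed at 80% or more. The same shares over the 10076 such CpGs of all promoters were 48.0%, 24.4% and 6.03%. Of the 92 CpGs, 25 were methylated in every call in Dnmt1+/+ and 0 in Dnmt1-/-, where 3 had no methylated call. The CCGG and TCGA CpGs of the 8 promoters, 34 in number, read 95.2% in Dnmt1+/+ and 63.6% in Dnmt1-/-, and 25 of them were called lower, against 8.43% of such CpGs over all promoters. Since such CpGs read near 50% at unmethylated promoters as well, these values say little of the methylation kept.

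The calls behind some of these CpGs may not be independent. All 4 counts of a CpG (methylated and total, in each library) were even at 16.8% of other CpGs with intermediate levels in both libraries, against 6.25% if even and odd counts fell independently. Of all 92 promoter CpGs, 28 had only even counts, 14 of them in Ddx4 and 11 in Mael. This count was not limited to intermediate levels, so it is not set against those shares. If single molecules gave 2 calls there, the intervals and p-values of Ddx4 and Mael are too narrow, and the cause was not tested. With the counts halved at the CpGs whose 4 counts were all even, 80 of the 92 CpGs were called lower.

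The level kept could be compared by position at 3 of the genes, those with at least 3 other CpGs both within 50 bp of the start and farther away. It was higher near the start by at least 10 points at Asz1 and Ddx4, but not at Mael. In Dnmt1-/-, Asz1 read 58.8% over the 6 CpGs within 50 bp and 15.4% over the other 6. Ddx4 read 43.9% over 13 near CpGs and 20.9% over 16 farther ones. For Mael the values were 26.7% over 6 and 18.8% over 15, a gap under 10 points. This pattern was looked for after the values of these genes had been seen. Of the 119 promoters at 50% or more in Dnmt1+/+ that could be compared in the same way, 26.9% kept at least 10 points more near the start. The 3 genes are too few to set against that share, and Piwil2, Mov10l1, Tdrd1, Tdrd9 and Tex19.1 had 0 measured other CpGs within 50 bp.

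**Figure D3:**
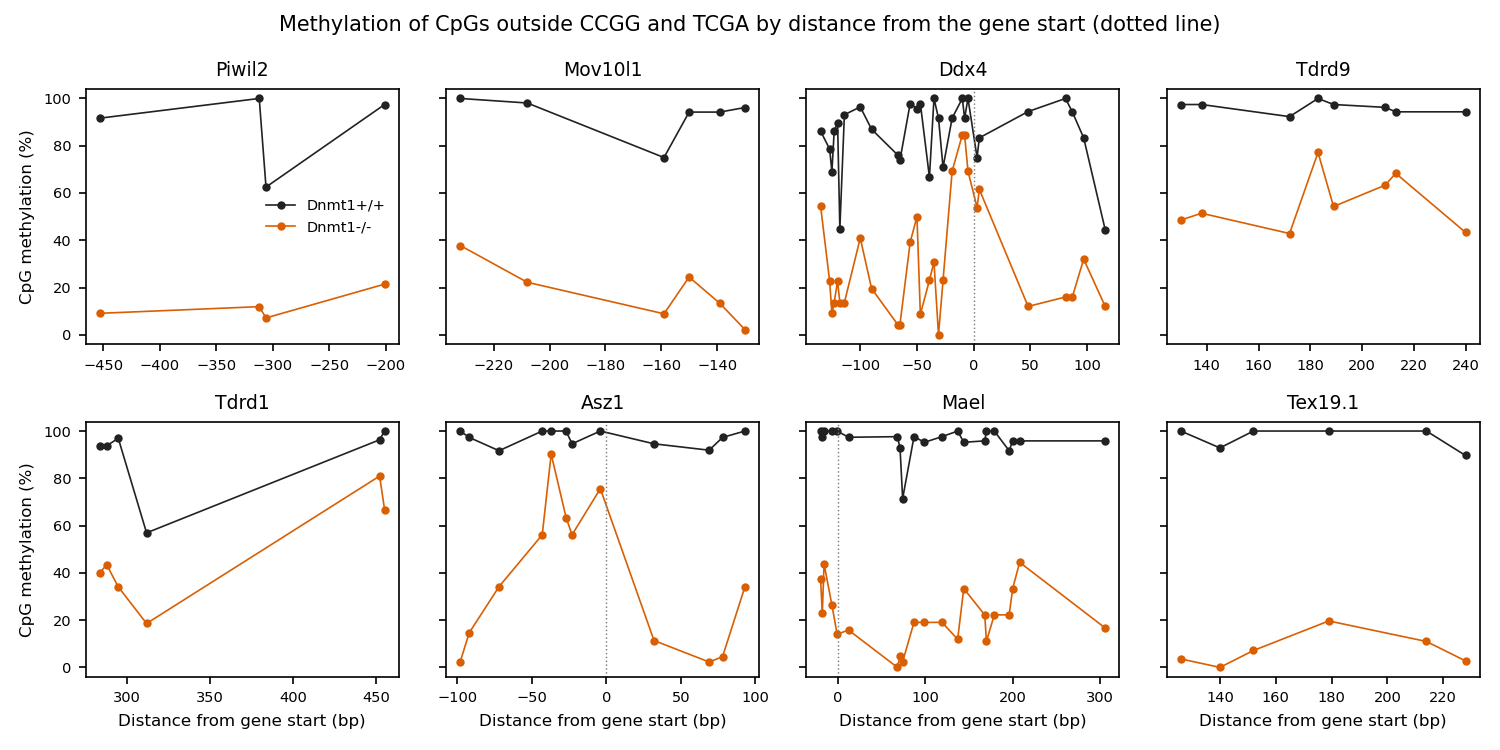
Percent methylation of each measured promoter CpG outside CCGG and TCGA of the 8 genes against its distance in bp from the annotated start, in both libraries. In Dnmt1-/- the high CpGs of Asz1 and most of those of Ddx4 lie at the start, and those of Tdrd9 are spread over 130 to 240 bp.

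In the bodies, methylation was also high in Dnmt1+/+ and lower in Dnmt1-/-, as it was in gene bodies generally. At least 5 other body CpGs were measured in 5 of the 8 genes, and 5 of 5 were lower by 25 points or more, against 83.7% of all protein-coding genes. Of their 132 body CpGs, 110 (83.3%) were called lower, against 60.4% of all body CpGs of protein-coding genes. Mael and Tex19.1 had 0 measured body CpGs. Ddx4 had 2, both in CCGG or TCGA, so no body level is given for it.

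The order of the genes in the bodies was not that of the promoters. Piwil2, among the lowest at the promoter, kept the most of the 5 genes in its body, with means of 96.2% and 48.7% over 12 CpGs and a pooled Dnmt1-/- level of 45.6% (39.6 to 51.6%). Of the 12, 9 were called lower. The other 3, adjacent in an intron 40930 to 40934 bp from the start, each read 94.1% in Dnmt1-/- over 17 calls, while the CpG next to them at 40922 bp read 47.1%. Without these 3 the Dnmt1-/- body level of Piwil2 would lie below that of Tdrd9, so its first rank depends on them.

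Tdrd9 and Tdrd1 went the other way, with less kept in the body than at the promoter. Tdrd9 had means of 87.9% and 35.8% over 55 body CpGs, of which 41 were called lower, and its pooled body level in Dnmt1-/- was 35.0% (32.8 to 37.4%). Its promoter read 54.7% by the same measure, on which no test was run. At Tdrd1, 18 of 19 body CpGs were called lower, with means of 89.3% and 25.7% and a pooled Dnmt1-/- level of 21.2% (18.4 to 24.3%), beside 35.3% at its promoter. Asz1 showed the same order, with body means of 94.0% and 30.4%, 17 of 17 CpGs called lower and a pooled Dnmt1-/- level of 26.8% (23.9 to 29.8%), beside 36.5% at its promoter.

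At Mov10l1 the body read above the promoter in Dnmt1-/- by both measures, but the gap depended on the measure. Its 29 body CpGs had means of 91.6% and 24.0%, above the promoter mean of 18.1% in Dnmt1-/-, while the interval of the pooled Dnmt1-/- body level (16.9 to 21.7%) overlapped that of the promoter. Of the 29, 25 were called lower. Within the body, however, levels changed over short distances. In 1 intron, CpGs at 49980 and 49984 bp had 0 methylated of 28 calls in Dnmt1-/- (which allows up to 10.7%), and CpGs at 50087 and 50090 bp kept 78.9% and 84.2% of 19 calls.

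**Figure D4:**
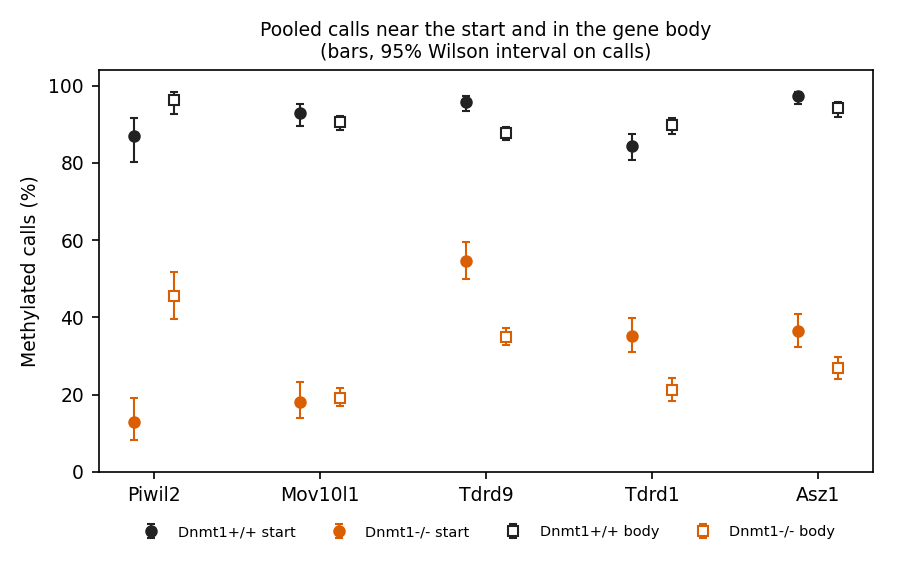
Percent of methylated calls, pooled over the other CpGs of the promoter and of the body, in both libraries, with 95% Wilson intervals. The 5 genes with at least 5 other body CpGs are shown. In Dnmt1-/- the body of Piwil2 lies above its promoter and the bodies of Asz1, Tdrd1 and Tdrd9 lie below theirs. Ddx4, Mael and Tex19.1 have no body value and are absent.

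Further genes of the pathway were less uniform. Of 19 such genes, 16 had measured other promoter CpGs, Piwil1, Piwil4 and Morc1 had 0, and 13 had at least 5. Of the 13, 8 were at 50% or more in Dnmt1+/+, the same number were lower by 25 points or more, and 3 were under 10% in Dnmt1+/+. Over all promoters the shares were 6.04% at 50% or more and 7.1% lower by 25 points. Of their 262 promoter CpGs, 94 (35.9%) were called lower, against 7.11% over all promoters. The 3 highest in Dnmt1+/+ were Stk31, a tudor-domain protein, at 98.9% and 69.3%, Gtsf1, a zinc-finger cofactor of Piwi proteins, at 97.1% and 39.0%, and Pnldc1, which trims piRNA 3′ ends, at 94.9% and 61.2%. The 3 lowest were Mybl1, the A-MYB transcription factor, at 1.61% and 0.604%, Exd1 at 2.31% and 1.13%, and the tudor-domain gene Tdrd5 at 9.06% and 1.87%. Not every gene of the pathway thus had a methylated promoter in these MEFs.

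Relatives of the 8 genes that act in somatic cells had promoters at the low level usual for promoters in these libraries. Each of 11 genes of the microRNA machinery and related helicases was under 10% in Dnmt1+/+, 0 were lower by 25 points or more, and 11 of 456 promoter CpGs (2.41%) were called lower, against 7.1% of promoters and 7.11% of CpGs over all protein-coding genes. Mov10, the somatic relative of Mov10l1, read 1.24% and 0.712% over 31 CpGs. Ago2, an Argonaute like Piwil2 but bound to microRNAs, read 1.44% and 0.842%. Ddx3x, a DEAD-box helicase like Ddx4, read 0.171% and 0.667%. In the bodies, 9 of 9 with at least 5 CpGs were lower by 25 points or more in Dnmt1-/-, close to the 83.7% of all bodies.

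The promoters of the 8 genes were CpG-rich to different degrees. Over 250 bases to each side of the start, the ratio of observed to expected CpGs ran from 0.551 at Tex19.1 and 0.556 at Piwil2 to 0.833 at Mael and 0.850 at Ddx4, and GC content from 56.5% at Asz1 to 74.5% at Ddx4. The gene that kept the least, Tex19.1, and the one that kept the most, Tdrd9, with a ratio of 0.576, were close on this scale.

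Short motifs were searched on both strands from 250 bases before to 50 bases after each start. The E-box CACGTG was found at 5 of the 8 genes (Mael, Ddx4, Tdrd1, Tdrd9 and Mov10l1) and in 7.78% of 22367 promoters. The NRF1 motif GCGCATGC was found at 3 (Tex19.1, Tdrd9 and Mov10l1) and in 3.3%. The SP motif GGGCGG was found at 5 (Asz1, Mael, Ddx4, Piwil2 and Mov10l1) and in 43.4%, the E2F motif GCGGGAA at 1 (Ddx4, overlapping an SP match) and in 5.58%, and the MYB motif AACNGTT at 0 and in 3.97%. A match describes the letters and not binding.

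A few of these matches held a measured CpG, all in the windows printed above apart from 1 SP match of Mael. The CpG of the Mov10l1 E-box, at -159 bp, read 75% and 8.89%, and the CpG of its NRF1 match at -208 bp 98.1% and 22.2%. The CpG of the Ddx4 E-box, at -27 bp, read 70.8% and 23.1% (adjusted p = 0.00457, Fisher's exact test). The CpG at -135 bp of Ddx4, inside the overlapping E2F and SP matches, read 86.2% and 54.5% and missed the threshold (adjusted p = 0.055, Fisher's exact test). At Asz1 the SP CpG at -92 bp read 97.3% and 14.6%.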

How the data were processed

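RRBS data were available for 2 libraries, 1 per genotype. Quality control and mapping were done by a service provider (BaseClear), and the submitters' processing notes name Bismark and mm9. The authors deposited, per CpG with both strands merged, the percent methylated cytosine and the total count of calls, and left out CpGs with fewer than 10 calls in either condition. The version, trimming and conversion rate were not given in the sources used here. Methylated counts were recovered as percent times total (100% whole within 0.01). Gene positions came from GENCODE vM1. Python 3.11.15, scipy 1.17.1, pandas 2.3.3 and pysam 0.24.0 were used. Each CpG was tested by Fisher's exact test, adjusted over all 1790826 CpGs at a threshold of 0.05 (tested on simulated data). A count of 0 allows up to 3 calls of the total. Named CpGs were the largest and smallest fall of each promoter, and named further genes the 3 highest and 3 lowest in Dnmt1+/+ with at least 5 CpGs. The CpGs of Piwil2 and Mov10l1 bodies and of motif matches were chosen after their values were seen. Members and lists were chosen with earlier results of these data known. Alternatives covered CpG context, depth, window, start, thresholds, thinning and pooling, plus counts halved at CpGs with only even counts, added after seeing the data.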

Additional observations from a re-analysis of the deposited data

How the results depend on the processing

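Of 35 alternatives, 27 kept the direction with a count within 1.5 times the one reported or a median within its counting spread, and 0 were reversed. Among those 27, a fall of 50 points was met by 5 of 7 promoters (not Tdrd1 or Tdrd9) and 4 of 5 bodies (not Piwil2). With at least 10 CpGs required, 3 promoters could be counted and 3 were lower by 25 points. Over whole annotated spans, which also hold CpGs near the start, 8 of 8 genes were lower by 25 points, against 5 bodies. Ddx4, Mael and Tex19.1 entered that count only through CpGs within 1 kb of their start. The median share kept at the promoters, 36.8%, was 41.4% over all CpGs and 31.7% from pooled calls. Thinned to 10 calls per library, 45 promoter CpGs (81 before) and 56 body CpGs (110 before) were called lower. At 20 calls or more, 66 of 73 body CpGs were called, and over all CpGs 182 of 253. Counts halved where all 4 were even gave 80 and 107. No paired analysis was possible because only 1 library stood for either genotype. For the same reason no replicate could be left out, and the genotype, the cell line and the library cannot be told apart. Depth limits single CpGs, and the number of covered CpGs limits each gene.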

Other observations

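Outside the 8 genes, the promoter of Pld6, a mitochondrial protein of piRNA processing, went against the rest of the pathway, and it was picked after its values were seen. Its 15 other CpGs averaged 19.3% in Dnmt1+/+ but 28.2% in Dnmt1-/-, and 3 were called higher by Fisher's exact test, all of the higher calls among the further pathway genes, while 0.621% of other CpGs over all promoters were called higher.

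The 3 genes outside the pathway lists named here lay nearest to the medians of the 7 genes with at least 5 promoter CpGs (96.1% and 31.2%, without Piwil2) in the plane of the 2 library means, among 8488 promoters with at least 20 other CpGs. They were Dmrtb1, a transcription factor gene of the male germline, at 93.7% and 30.8%, Dpep3 at 93.9% and 29.0%, and the X-linked homeobox gene Rhox13 at 94.6% and 24.5%. The likeness rests on 2 values per gene.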
